A study of Rattus norvegicus with 32 samples.

Results

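Class II genes of the major histocompatibility complex and their partners were followed in 16 cultures of rat epithelial cells. The genes were RT1-Da, RT1-Ba, RT1-Bb, RT1-Db1, RT1-DMa, RT1-DMb, Cd74 and Ciita, and a probe set was taken where the platform annotation gave it one of these symbols and no other. All 8 genes had exactly 1 such probe set, so 8 probe sets were read, of 15316 that named a single gene and stood for 14511 genes.

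Class II molecules are pairs of an alpha and a beta chain that hold peptides from the endosome at the cell surface, where CD4+ T cells read them. The rat RT1-D and RT1-B pairs correspond to human HLA-DR and HLA-DQ. The invariant chain Cd74 fills the groove of a new pair and guides it to the endosome, and RT1-DM (HLA-DM in human) exchanges the remaining Cd74 fragment for a peptide. Ciita is the coactivator that switches these genes on together, usually downstream of interferon gamma, through factors bound at the X and Y boxes before each gene. In the thymus, epithelial cells present class II to developing T cells and select them, while most other epithelia carry little of it unless exposed to interferon gamma.

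Each culture was hybridised to 2 Affymetrix arrays of rat genes, and the study compared thymic epithelial cell (TEC) and hair follicle (HF) cultures before and after transplantation. All donors were Sprague-Dawley rats carrying a constitutive EGFP transgene, and all cultures were grown on irradiated 3T3-J2 mouse feeder cells. Grafted cultures were recovered from skin grafts on nude mice, whose GFP-positive follicles were dissected and dissociated. The 12 TEC cultures came from donors at embryonic day 16 (E16), postnatal day 1 (P1) or 4 months of age.

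The ungrafted TEC cultures were PRE16cl11_VII (E16), PRP1cl11_VII (P1), and PRP4mo_bulk and PRP4mo_Cl09 (4 months). Those after a first transplantation were Clone_217 and Clone_218 (E16), Clone_57 (P1) and Clone_907 (4 months). Those after a second were Clone_287 and Clone_347 (E16), Clone_194 (P1) and Clone_354 (4 months). The HF cultures after a first transplantation were YR219P5_RC and Clone_54, and those before grafting were YR219P5_Bulk_V and YR219P5cl7. All 4 HF cultures are labelled P5 with no further explanation. PRP4mo_bulk, YR219P5_Bulk_V and YR219P5_RC are labelled bulk, as are Clone_907 and Clone_354 despite their names. The other 11 cultures each stand for 1 clone, and no label says which cultures came from the same animal.

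Array medians lay between 5.287 and 5.554 on the log2 scale, except array 1 of YR219P5_RC at 5.782. Krt14, a keratin of basal epithelium, lay between 12.95 and 13.35 in all TEC cultures and between 13.10 and 13.28 in all HF cultures. Epcam, an epithelial adhesion molecule, lay between 9.95 and 10.87 in TEC cultures and between 7.64 and 10.79 in HF cultures. Both Krt8 probe sets, for a keratin of simple and thymic epithelium, separated the tissues, the first with 7.84 to 11.60 in TEC cultures and 6.67 to 7.12 in HF cultures. The defining markers of thymic epithelium did not: Foxn1, its master transcription factor, which hair follicles also use, lay between 5.48 and 6.02 in TEC cultures and between 5.13 and 6.15 in HF cultures. Psmb11, the proteasome subunit of thymic cortical epithelium, lay between 3.93 and 4.29 in TEC cultures and between 4.02 and 4.52 in HF cultures. Krt5 and Dsp of the epithelial list were not analysed here.

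The stretches before the class II genes are shown first, because the X and Y boxes are where Ciita acts through its partner factors. RefSeq's table of promoter windows in the rat assembly GRCr8 held 6 of the 8 genes, all except RT1-DMb and Ciita. Each window runs from 250 bases before to 50 bases after the gene start set in that table. For RT1-Da, RT1-Db1 and Cd74 this start lies inside the gene as its RefSeq record bounds it. An X-box-like pattern, ACNGATG, and a Y-box-like pattern, TGATTGG, were searched on both strands, and the patterns share no overlapping match in any stretch shown. In each 70-base stretch, written 5′ to 3′ on the gene's own strand, capitals mark the matches, with X before Y where both were found. They lie on chromosome 20 at chr20:4515314-4515383 (plus strand) for RT1-Da, chr20:4576962-4577031 (plus) for RT1-Ba, chr20:4604162-4604231 (minus) for RT1-Bb, chr20:4560225-4560294 (minus) for RT1-Db1 and chr20:4712382-4712451 (minus) for RT1-DMa.
RT1-Da: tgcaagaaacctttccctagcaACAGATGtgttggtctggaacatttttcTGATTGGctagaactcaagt
RT1-Ba: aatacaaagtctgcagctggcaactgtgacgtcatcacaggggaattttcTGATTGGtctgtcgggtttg
RT1-Bb: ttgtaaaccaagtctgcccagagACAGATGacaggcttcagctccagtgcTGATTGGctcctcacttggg
RT1-Db1: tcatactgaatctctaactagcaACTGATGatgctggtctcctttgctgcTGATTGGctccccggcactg
RT1-DMa: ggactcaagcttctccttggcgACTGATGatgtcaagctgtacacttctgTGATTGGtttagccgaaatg

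Both patterns stood before RT1-Da, RT1-Bb, RT1-Db1 and RT1-DMa, with 20 or 21 bases between them. RT1-Ba held the Y pattern only, and Cd74 held neither in its window. For both genes this says only that the exact letters are not in those 300 bases, not that a box is absent. Over all 33469 promoter windows of the table, 10.2% held the X pattern, 7.06% the Y pattern and 0.0657%, or 22 windows, X followed by Y on the same strand within 40 bases. Of these 22 windows, 6 belonged to class II genes: the 4 named above, RT1-DOb and RT1-Db2. A longer form, with G and 2 further bases of any kind before the X pattern, was tried first and left 10 such windows, the same number of them (6) of class II genes. The letters of the X pattern were settled after the class II windows had been read, so this count describes the windows and tests nothing.

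**Figure D1:**
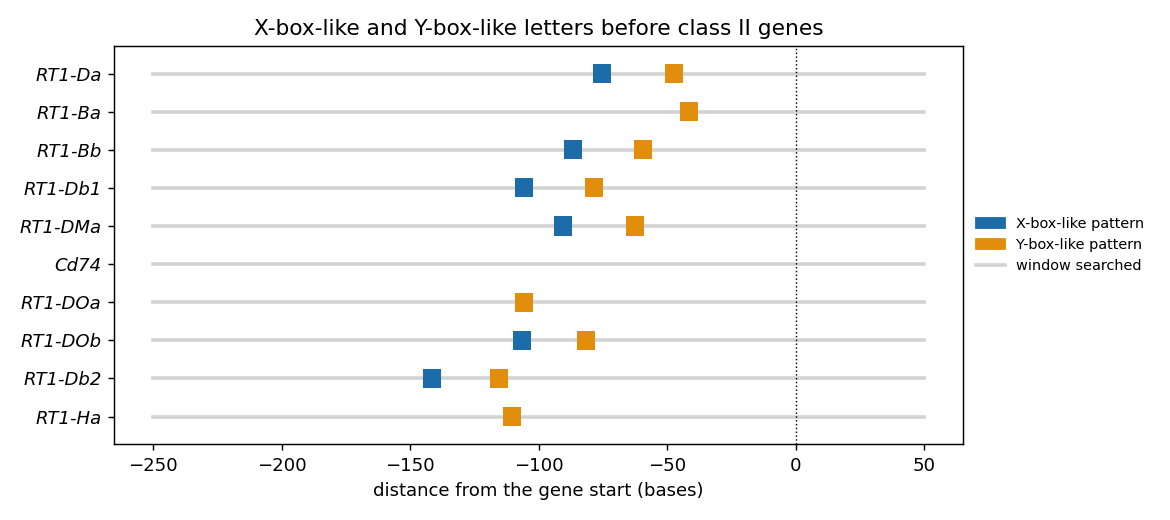
Positions of the X-box-like and Y-box-like patterns in the 300-base windows of 10 genes, Cd74 and 9 class II genes. The x axis gives the distance in bases from the gene start that each window is set on. Paired blocks stand in 6 genes, RT1-Ba, RT1-DOa and RT1-Ha show the Y block alone, and Cd74 shows no block.

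No class II gene passed the test in any of the 9 comparisons made with limma (0 of 72 pairs of gene and comparison at a Benjamini-Hochberg adjusted p under 0.05). The number with an unadjusted p under 0.05 was 6 of 72, against 13.6% over all probe sets and comparisons, and the lowest adjusted p was 0.129, for RT1-DMb between TEC and HF cultures before grafting. The levels did differ between single cultures. Cd74 and RT1-DMa ranged over 2.34 and 2.51 on the log2 scale, far beyond the spread between the arrays of a culture. RT1-Bb was high in 1 TEC culture after a second transplantation, Clone_347, and RT1-DMb was low in both HF cultures before grafting. In cultures measured as a whole, fewer cells with a transcript and less of it per cell cannot be told apart.

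**Figure D2:**
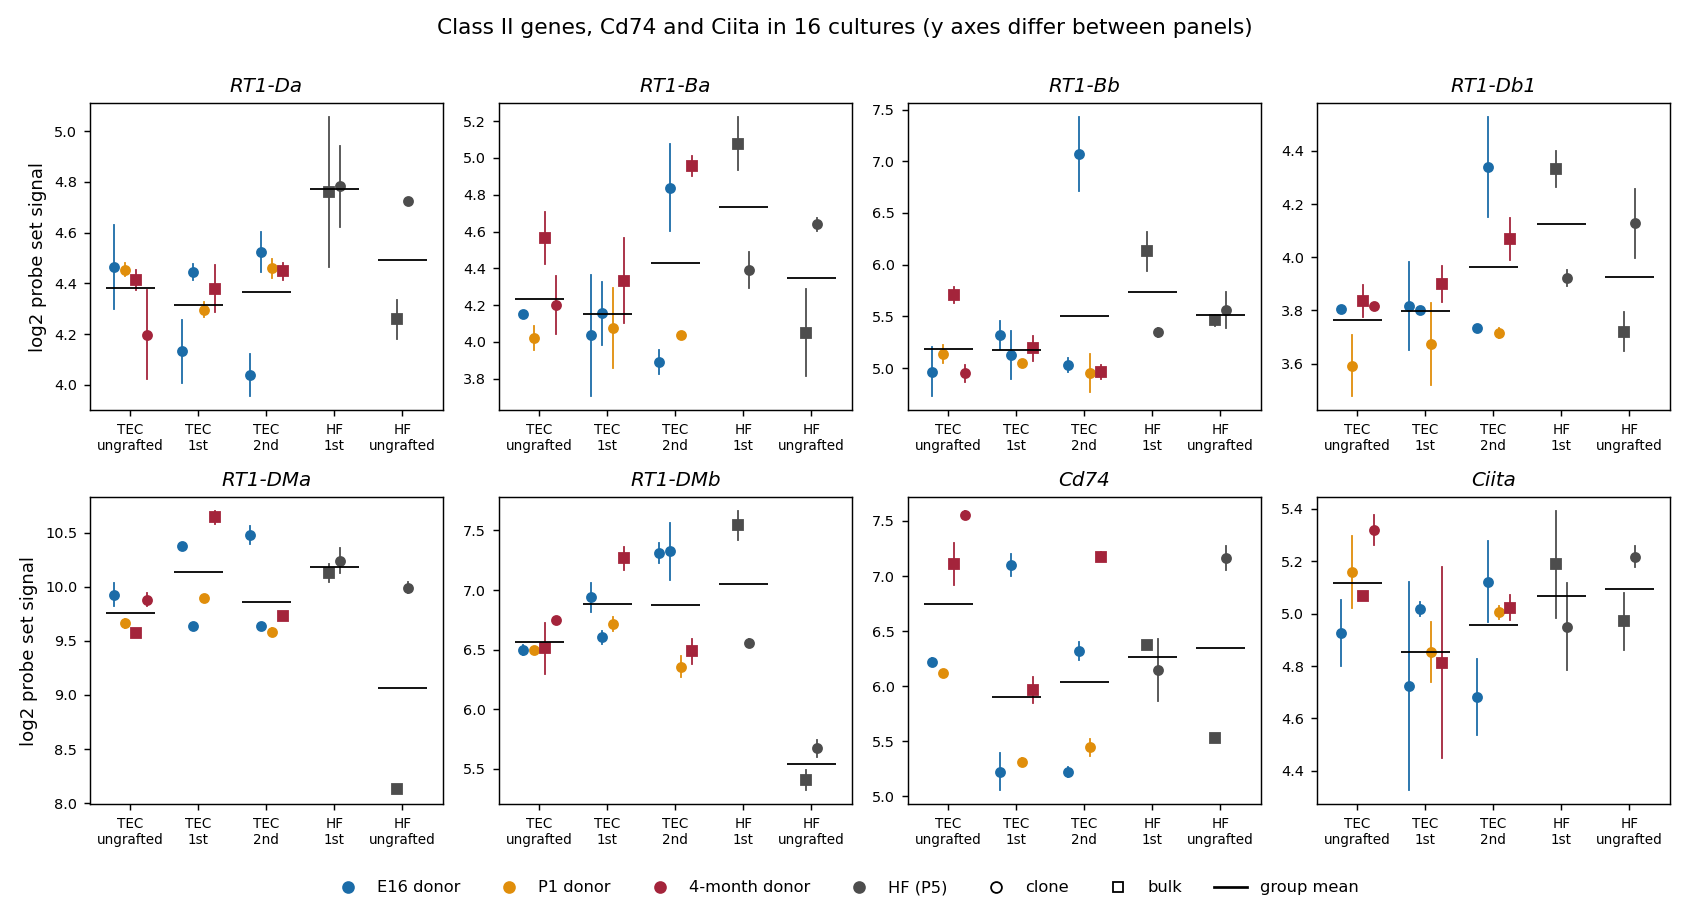
Log2 probe set signal (y axis, own scale in each panel) of the 8 genes in the 16 cultures, grouped by tissue and transplantation on the x axis; points are means of 2 arrays, thin lines join the arrays and horizontal lines are group means. Cd74 ranges from 5.22 to 7.56, the RT1-DMb points of ungrafted HF cultures lie lowest at 5.41 and 5.67, and Clone_347 stands alone at 7.07 for RT1-Bb.

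Ciita, the coactivator, had a log2 signal of 4.92, 5.16, 5.07 and 5.32 in ungrafted TEC cultures, of 4.72, 5.02, 4.85 and 4.81 after a first transplantation and of 4.68, 5.12, 5.01 and 5.02 after a second. In HF cultures it was 5.19 and 4.95 after a first transplantation and 4.97 and 5.22 before grafting. The groups overlap in all 5 pairings of interest. The SD between cultures was 0.18, against an SD of 0.24 between the arrays of a culture, so the order of the cultures for this probe set lies within array error. The fitted log2 difference was -0.27 ± 0.12 (limma SE) for TEC after a first transplantation against before, with adjusted p = 0.306.

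Cd74, the invariant chain, had a log2 signal of 6.22, 6.12, 7.11 and 7.56 in TEC cultures before grafting, of 5.22, 7.10, 5.31 and 5.97 after a first transplantation and of 5.22, 6.32, 5.44 and 7.17 after a second. In HF cultures it was 6.38 and 6.15 after a first transplantation and 5.53 and 7.16 before grafting. The high and low cultures were spread over the groups: PRP4mo_Cl09, Clone_354, YR219P5cl7, PRP4mo_bulk and Clone_218 lay highest, and Clone_217 and Clone_287 lowest. The values of Clone_354, YR219P5cl7, PRP4mo_bulk and Clone_218 span less than 1 SD between arrays, which was 0.16. The SD between the 16 cultures was 0.78, which 3.55% of all probe sets exceeded.

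By group, Cd74 averaged 6.75 ± 0.70 in ungrafted TEC cultures, 5.90 ± 0.87 after the first graft and 6.04 ± 0.89 after the second (SD, n = 4 each). HF cultures averaged 6.26 ± 0.16 after a first transplantation and 6.35 ± 1.15 before grafting (SD, n = 2 each). No neighbours in this order of means are further apart than their spread. Against ungrafted TEC cultures, the fitted log2 difference was -0.85 after a first transplantation (95% interval -1.98 to 0.28, adjusted p = 0.482) and -0.71 after a second (-1.84 to 0.42, adjusted p = 0.51). These intervals run from a clear fall to a small gain, and both comparisons share the ungrafted cultures. The second minus the first transplantation gave 0.14 (-0.99 to 1.27; -0.24 without Clone_354), and TEC minus HF cultures before grafting gave 0.40 (-0.98 to 1.79). The last value turned to -0.41 without YR219P5_Bulk_V and to -0.53 with clonal cultures alone.

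By donor stage, Cd74 averaged 6.02 ± 0.80 in E16 (n = 5), 5.62 ± 0.43 in P1 (n = 3) and 6.95 ± 0.69 in 4-month TEC cultures (SD, n = 4). PRP4mo_bulk, PRP4mo_Cl09 and Clone_354 lay among the 4 highest cultures of all 16, while the 4-month culture Clone_907 at 5.97 lay within the E16 range. With grafting as a term of the fit, the difference was 0.76 ± 0.42 (limma SE) for 4-month minus E16 donors (95% interval -0.17 to 1.68, adjusted p = 0.549). For P1 minus E16 donors it was -0.47 ± 0.44 (-1.45 to 0.50, adjusted p = 0.616), and it was -0.11 without Clone_218.

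The grafted E16 clones differed among themselves in both rounds of grafting. Cd74 was 5.22 in Clone_217 and 5.22 in Clone_287, against 7.10 in Clone_218 and 6.32 in Clone_347. RT1-DMa, the alpha chain of the peptide exchanger, ran the other way, at 10.37 and 10.48 in Clone_217 and Clone_287 and at 9.64 and 9.64 in Clone_218 and Clone_347. Its beta chain RT1-DMb did not share this split in both rounds. It was 6.94 in Clone_217 against 6.60 in Clone_218, but 7.31 in Clone_287 against 7.32 in Clone_347. In the direction of Cd74 ran Ciita (4.72 and 4.68 against 5.02 and 5.12), RT1-Da (4.13 and 4.04 against 4.45 and 4.52) and RT1-Ba (4.04 and 3.89 against 4.15 and 4.84). For Ciita and RT1-Ba the arrays of Clone_217 and Clone_218 overlapped. RT1-Bb and RT1-Db1 ran that way in the second round only. The labels give no lineage for these clones, and the split was noticed in the values, so it is given without a test.

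The classical alpha chain RT1-Da, which corresponds to the HLA-DR alpha chain, lay between 4.20 and 4.46 in ungrafted TEC cultures, 4.13 and 4.45 after the first graft and 4.04 and 4.52 after the second graft. It was 4.76 and 4.78 in HF cultures after a first transplantation and 4.26 and 4.72 before grafting. The grafted HF cultures lay just above the ungrafted ones. With array 2 alone for YR219P5_RC, whose arrays read 5.06 and 4.47, they would overlap. Averaged over both states, TEC minus HF cultures gave -0.28 ± 0.11 (limma SE, 95% interval -0.52 to -0.05, adjusted p = 0.146).

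RT1-Db1, the beta chain of the same pair, lay between 3.59 and 4.34 in TEC cultures and between 3.72 and 4.33 in HF cultures. RT1-Ba, the alpha chain of the HLA-DQ-like pair, lay between 3.89 and 4.96 in TEC cultures and between 4.05 and 5.08 in HF cultures. For both genes all paired groups overlapped. The highest RT1-Ba cultures were YR219P5_RC at 5.08, Clone_354 at 4.96 and Clone_347 at 4.84. The deposited table holds no detection calls, so whether these low signals exceed background is not known.

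RT1-Bb, the beta chain that pairs with RT1-Ba, had a log2 signal of 4.96, 5.13, 5.71 and 4.95 in TEC cultures before grafting, of 5.32, 5.12, 5.05 and 5.19 after a first transplantation and of 5.03, 7.07, 4.95 and 4.96 after a second. In HF cultures it was 6.13 and 5.35 after a first transplantation and 5.46 and 5.56 before grafting. Clone_347 alone stood out, with 7.43 and 6.72 on its arrays, and YR219P5_RC came next. In Clone_347, RT1-Db1 (4.34, arrays 4.15 and 4.53) was level with YR219P5_RC (4.33) at the top of the 16 cultures. There RT1-Ba (4.84) ranked 3 and RT1-Da (4.52) ranked 4, while Cd74 (6.32) ranked 7. The arrays of Clone_347 had the lowest correlation of any culture's arrays (r = 0.984). The log2 difference of TEC cultures after a second transplantation against before was 0.32 (95% interval -0.51 to 1.15, adjusted p = 0.735), and it was -0.21 without Clone_347.

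Clone_347 also had the highest level of Cd68, a lysosomal protein abundant in macrophages, at 8.78, against 5.17 to 7.92 in the other 15 cultures. Its Ptprc, the gene of the leukocyte antigen CD45, was 3.34 and ranked 11 of 16, and its Csf1r, the macrophage growth factor receptor, was 4.24 and ranked 4. Over all cultures Ptprc ranged from 3.16 to 3.88 and Csf1r from 3.85 to 4.35. Of 20 genes of haematopoietic and antigen-presenting cells, Clone_347 ranked 1 for Cd68, 2 to 4 for 6 (Cd2, Zbtb46, Tyrobp, Itgam, Csf1r and Flt3), 5 to 8 for 10 and lower for 3. The part of these markers in the RT1-Bb value was not tested.

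RT1-DMb, the beta chain of the peptide exchanger, had a log2 signal of 6.50, 6.49, 6.51 and 6.75 in TEC cultures before grafting, of 6.94, 6.60, 6.72 and 7.27 after a first transplantation and of 7.31, 7.32, 6.36 and 6.49 after a second. In HF cultures it was 7.54 and 6.55 after a first transplantation and 5.41 and 5.67 before grafting. Both ungrafted HF cultures lay below every other culture. Ungrafted TEC minus ungrafted HF cultures gave 1.02 ± 0.31 (limma SE, 2.03-fold, 95% interval 0.36 to 1.68, adjusted p = 0.129), with no overlap, as in 25.8% of all probe sets. In that comparison 0 of the 8 class II genes passed, against 1.55% of all probe sets.

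HF cultures after a first transplantation minus before gave 1.51 ± 0.35 for RT1-DMb (limma SE, 2.85-fold, 95% interval 0.75 to 2.27, adjusted p = 0.562). RT1-Da, RT1-DMa and RT1-DMb were the 3 class II genes whose HF groups did not overlap, which with 2 cultures each also holds for 41.4% of all probe sets. In this comparison 0 of 8 class II genes and 0% of all probe sets passed, although 1354 probe sets had an unadjusted p under 0.05. The first transplantation effect in TEC minus that in HF cultures was -1.19 ± 0.43 for RT1-DMb (adjusted p = 0.827), again with 0% of all probe sets past and 866 at an unadjusted p under 0.05. With culture as a random block over single arrays RT1-DMb passed both for TEC against HF before grafting (adjusted p = 0.00634, with 6.38% of all probe sets past in that fit) and for HF after against before (adjusted p = 0.00802, with 0.32% past). That fit uses 1 correlation of 0.559 between the arrays of a culture for all probe sets, while RT1-DMb's arrays differed far less than its cultures (SD 0.15 against 0.57).

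RT1-DMa had a log2 signal of 9.93, 9.66, 9.57 and 9.88 in TEC cultures before grafting, of 10.37, 9.64, 9.89 and 10.64 after a first transplantation and of 10.48, 9.64, 9.58 and 9.73 after a second. In HF cultures it was 10.13 and 10.24 after a first transplantation and 8.13 and 9.99 before grafting. YR219P5_Bulk_V stood apart at the low end, and the other 15 cultures spanned 9.57 to 10.64. The log2 difference was 0.70 ± 0.41 for ungrafted TEC minus ungrafted HF cultures (adjusted p = 0.512) and 1.12 ± 0.47 for HF after minus before (limma SE, 2.18-fold, adjusted p = 0.562). The first value turned to -0.23 without YR219P5_Bulk_V and became 1.63 without YR219P5cl7. The second became 0.20 without YR219P5_Bulk_V and 2.05 without YR219P5cl7. Each of these fits left 1 ungrafted HF culture, so only the size of the difference is given. YR219P5_Bulk_V was also lowest for Epcam (7.64) and Cdh1 (9.19, others 10.44 to 10.79) of the epithelial list. Its Krt14 (13.10) was not lowest, and its Tp63 (10.10) was highest. Among the fibroblast and feeder genes it was highest for Vim (11.81) and Thy1 (6.77) only. The part of these markers in its RT1-DMa and RT1-DMb values was not tested.

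**Figure D3:**
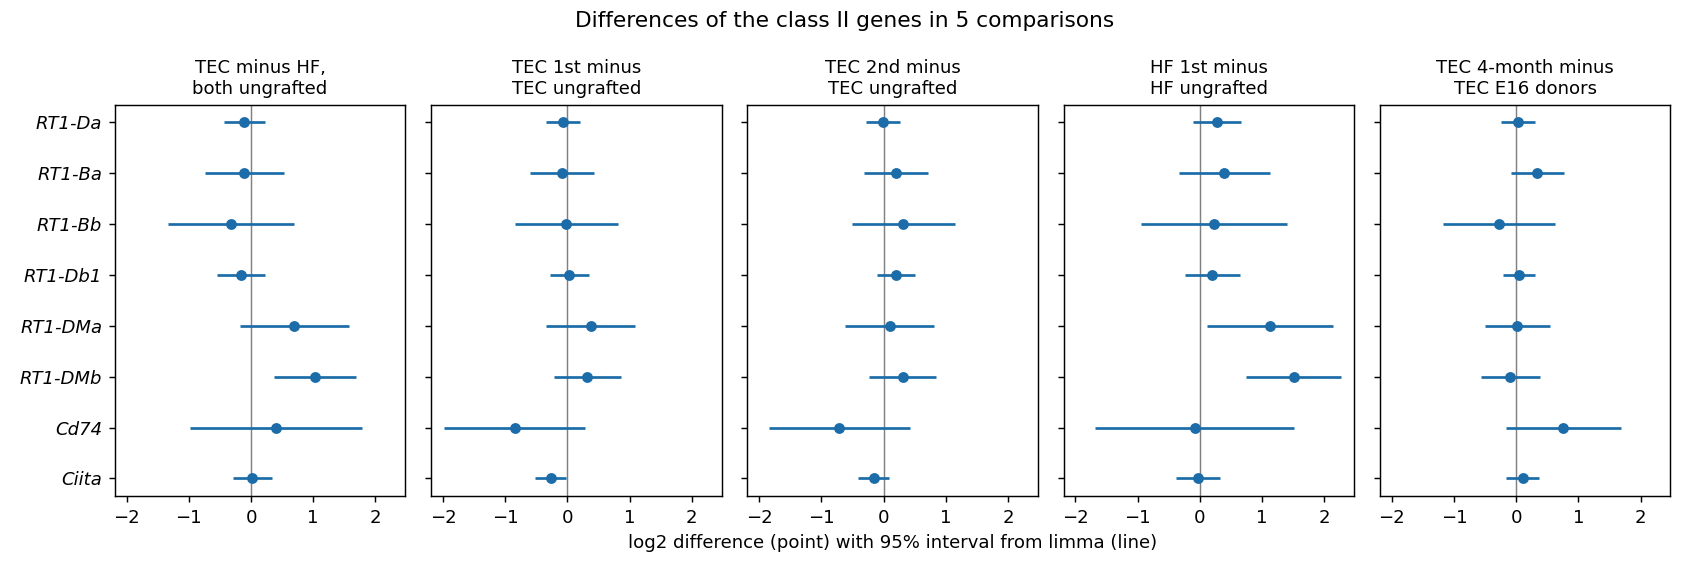
Log2 differences of the 8 genes (points) with 95% intervals from limma (lines) in 5 comparisons, each panel naming the group on top of the difference first. The intervals of RT1-DMb exclude 0 for TEC minus HF before grafting (0.36 to 1.68) and for HF after minus before grafting (0.75 to 2.27), but neither passed adjustment over all 15316 probe sets.

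In the remaining comparisons the class II count was again 0 of 8. All probe sets past the threshold made up 0.516% for TEC cultures after a first transplantation against before and 3.86% after a second against before. They made up 0% for the second against the first transplantation (532 probe sets at an unadjusted p under 0.05), 4.17% for TEC against HF cultures averaged over both states, 0.0914% for 4-month against E16 donors and 6.08% for P1 against E16 donors. The median log2 difference of the 8 genes in TEC cultures was -0.04 for the first graft and 0.15 for the second, each against none. Over all probe sets both medians were 0.01. In HF cultures the median of the 8 genes was 0.25 after against before, and 0.10 over all probe sets. The first transplantation effect in TEC minus that in HF cultures was negative for all 8, with a median of -0.41 (-0.10 over all probe sets). These HF values rest on 2 cultures in each state. The other class II genes measured, RT1-DOa and RT1-DOb of the DM inhibitor and RT1-Ha, also gave 0 of 3 in every comparison, with 2 of 27 unadjusted p under 0.05 and with cultures spanning 5.24 to 6.02, 4.41 to 4.94 and 3.88 to 4.41. RT1-Db2 was not analysed here.

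The 8 genes differed in how far culture identity, rather than the array, set their signal. For RT1-DMa the SD between cultures was 0.57 and between arrays 0.081, a ratio of 6.96 that 2.68% of all probe sets exceeded. Without YR219P5_Bulk_V the SD between cultures was 0.34 and the ratio 4.12, below Cd74's 4.77 over the same 15 cultures. Over all 16 cultures the ratio was 4.91 for Cd74 (exceeded by 7.44%), 3.72 for RT1-DMb (14.0%), 2.48 for RT1-Bb, 1.66 for RT1-Db1, 1.57 for RT1-Ba, 1.28 for RT1-Da and 0.73 for Ciita. The median over all probe sets was 1.50, so the classical chains other than RT1-Bb sat close to it, and RT1-Bb's own ratio was 1.76 without Clone_347 (median over all probe sets 1.60).

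**Figure D4:**
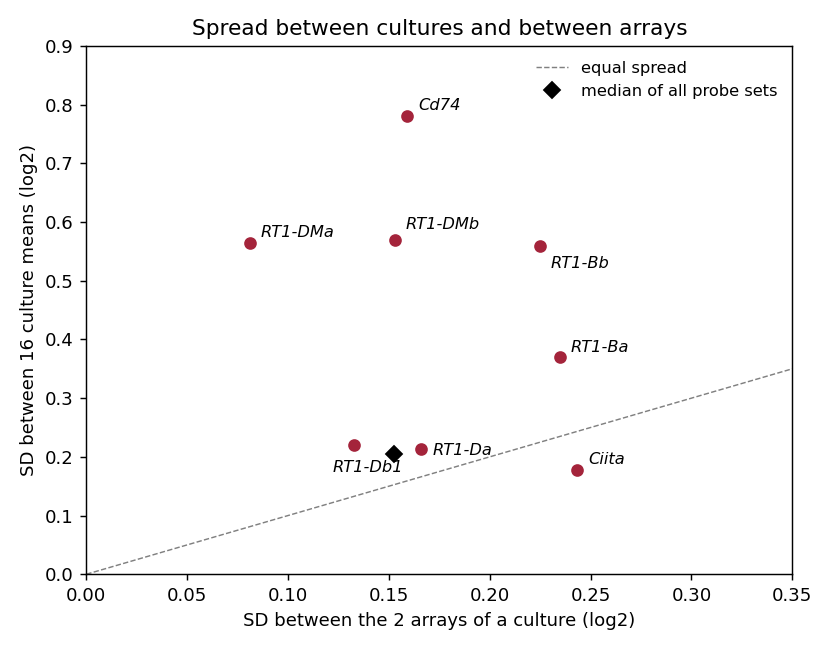
SD between the 16 culture means (y axis, log2) against SD between the 2 arrays of a culture (x axis, log2) for the 8 genes, with the median of all probe sets as a diamond. RT1-DMa, Cd74 and RT1-DMb lie well above the dashed line of equal spread, and Ciita (0.18 against 0.24) lies below it.

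Across the 16 cultures the class II genes did not move as a single block. RT1-Ba and RT1-Db1 followed each other most closely, with Pearson's r = 0.91 and Spearman's rho = 0.88, and r = 0.89 without YR219P5_RC and Clone_354. RT1-DMa and RT1-DMb gave r = 0.68 and rho = 0.51, but r = 0.34 without YR219P5_Bulk_V and Clone_907. RT1-Bb and RT1-Db1 gave r = 0.75 and rho = 0.51, but r = 0.28 without Clone_347 and YR219P5_RC. Both relations thus rest on those cultures. Of the 28 pairs 22 were positive. Cd74 with RT1-DMa (r = -0.05, rho = -0.27) and with RT1-DMb (r = -0.14, rho = -0.15) were not. The correlations carry no p, since cultures share tissue and donor stage.

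Cd74 and Ciita gave r = 0.74 and rho = 0.80 over the 16 cultures, and r = 0.70 without PRP4mo_Cl09 and Clone_354. Among the 15315 other probe sets Ciita ranked 9 by r with Cd74, although its own range was 0.64 on the log2 scale and within array error. The 10 most like Cd74 were Ripor1 (0.79), Il24 (0.79), Tinf2 (0.79), Pak1 (0.78), Zc2hc1a (0.78), Psmc3ip (0.78), Cyp2b15 (0.76), Scnm1 (0.75), Ciita and Dynll2 (0.73). Il24, a cytokine gene of the interleukin-10 family, ranged from 9.96 to 12.18. The 10 least like it were P2rx4 (-0.87), Ppt2, Celsr2, Pik3ip1, Cables1, P2rx7, Os9, Irx3, Nadsyn1 and Usp2 (-0.75). P2rx4 and P2rx7 encode ATP-gated ion channels.

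**Figure D5:**
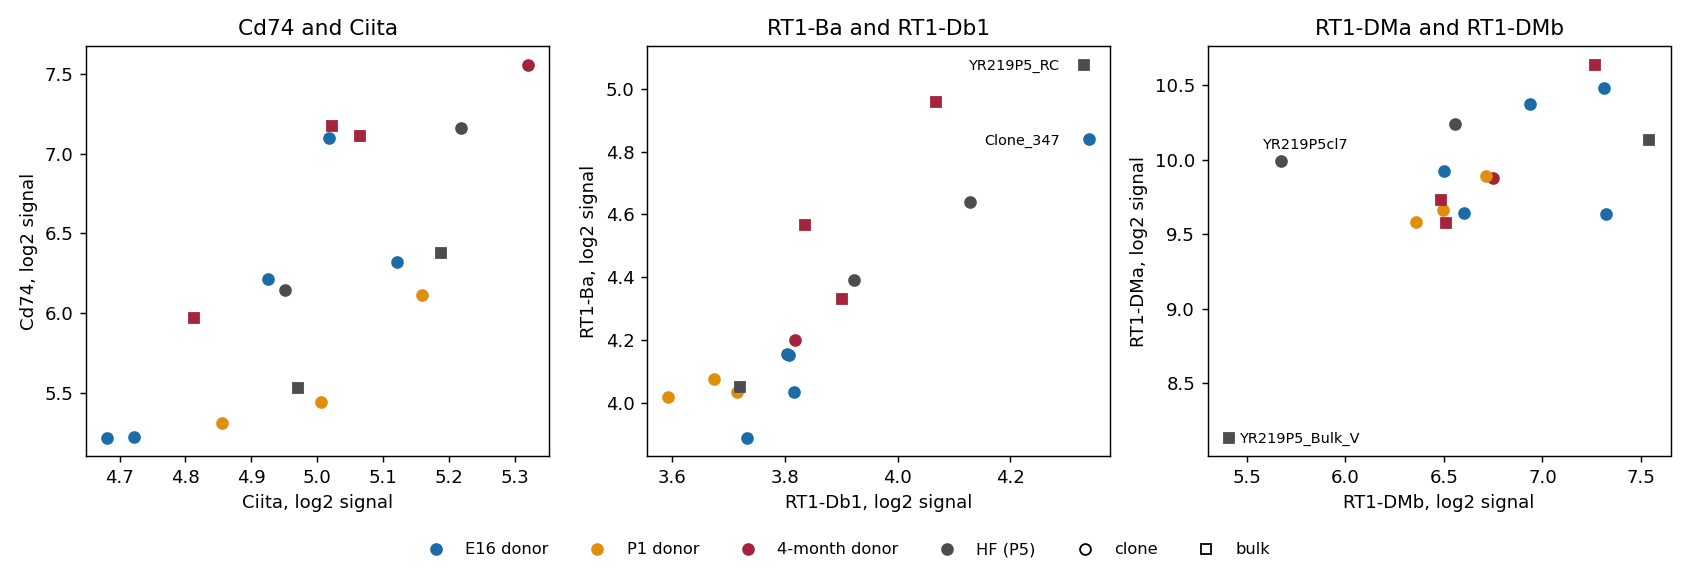
Log2 signals of 3 pairs of class II genes in the 16 cultures, 1 point for each culture, coloured by donor stage for TEC and in grey for HF cultures. Cd74 runs with Ciita (r = 0.74), although the order of the cultures for Ciita lies within array error. RT1-Ba runs with RT1-Db1 (r = 0.91), and YR219P5_Bulk_V lies far from the rest for RT1-DMa and RT1-DMb (r = 0.68, and 0.34 without it and Clone_907).

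Of the factors that bind the X and Y boxes or join Ciita there (Rfx5, Rfxap, Rfxank, Nfya, Nfyb, Nfyc, Creb1, Crebbp, Ep300 and Kat2b), 0 of 10 passed in any comparison, and 14 of 90 had an unadjusted p under 0.05. The median of the 10 was -0.11 for TEC cultures after a first transplantation against before and -0.08 after a second. Among 10 measured genes of the interferon gamma route to Ciita, 0 passed in the comparisons of grafted with ungrafted cultures. Averaged over both states, 2 of 10 were higher in TEC than in HF cultures: Irf8, an interferon-responsive transcription factor (1.95 ± 0.45, limma SE, adjusted p = 0.0329), and the kinase Jak1 (0.45 ± 0.11, adjusted p = 0.0407). These calls ended when 9 and 10 of the 16 cultures were left out in turn, among them YR219P5_Bulk_V for Irf8 (1.52). Over all probe sets 4.17% passed in this comparison.

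Irf8 had a log2 signal of 8.33, 6.90, 8.80 and 8.06 in TEC cultures before grafting, of 7.59, 8.14, 6.33 and 8.09 once grafted and of 7.20, 7.94, 6.44 and 8.15 after a second graft, against 6.14 and 6.50 in grafted and 4.48 and 6.20 in ungrafted HF cultures. Only the P1 cultures of the TEC set fell below 7. P1 minus E16 donors gave -1.35 ± 0.22 (limma SE, adjusted p = 0.0129), which was lost without Clone_57 or Clone_194 (adjusted p up to 0.137).

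The list of genes that load class II in the endosome held the clearest change near the pathway. Ctsh, the lysosomal protease cathepsin H, had a log2 signal of 7.70, 8.20, 7.94 and 8.18 in TEC cultures before grafting, of 9.34, 9.64, 9.51 and 9.57 after a first transplantation and of 9.92, 9.40, 10.02 and 9.13 after a second. In HF cultures it was 9.51 and 9.72 after a first transplantation and 9.36 and 9.06 before grafting. Every grafted TEC culture and every HF culture lay above every ungrafted TEC culture.

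The log2 difference of Ctsh was 1.51 ± 0.18 after a first transplantation (limma SE, 2.84-fold, adjusted p = 0.00312) and 1.61 ± 0.18 after a second (3.06-fold, adjusted p = 0.00113), with the ungrafted TEC cultures shared. Both calls held when each culture was left out in turn, with the highest adjusted p at 0.0178 and 0.00677. The first was lost with clonal cultures alone (1.47, adjusted p = 0.0886). Ungrafted TEC minus ungrafted HF cultures gave -1.20 ± 0.22 (adjusted p = 0.0184), lost without YR219P5_Bulk_V (adjusted p = 0.24), and the difference averaged over both states was -0.65 ± 0.16 (adjusted p = 0.0357, lost on leaving out any of 8 cultures, with adjusted p up to 0.134).

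The loading list held 13 genes on 20 probe sets, 8 of them for the chaperone Hspa8. After a first transplantation of TEC cultures 1 probe set rose, 0 fell and 19 did not pass, with 0.516% of all probe sets past. After a second, 2 rose, 0 fell and 18 did not pass, with 3.86% of all probe sets past. Beside Ctsh the other was Ctsb, cathepsin B (0.30 ± 0.07, limma SE, adjusted p = 0.0383, lost on leaving out any of 7 cultures). The median difference over the 20 probe sets was -0.16 and -0.12, with 9 positive and 11 negative, then 8 positive and 12 negative. All 8 Hspa8 probe sets were among the negative ones both times, so 1 gene weighs heavily in these medians. Ctss, the protease that trims Cd74 in antigen-presenting cells, was 5.07 in Clone_218, against 3.65 to 4.30 in the other 15 cultures, and differed by 0.20 ± 0.23 (adjusted p = 0.751) and -0.08 ± 0.23 (adjusted p = 0.912). P1 against E16 TEC cultures showed 3 lower: Ctsl, the cathepsin that trims Cd74 in mouse thymic cortex (-0.84 ± 0.12, adjusted p = 0.0104), the asparaginyl endopeptidase Lgmn (-0.68 ± 0.14, adjusted p = 0.0243) and the lysosomal membrane protein Lamp2 (-0.42 ± 0.09, adjusted p = 0.0326). Each was lost without Clone_57, with adjusted p = 0.109 for Ctsl, 0.232 for Lgmn and 0.294 for Lamp2, and without Clone_194. The calls of Ctsl, Lgmn and Lamp2 were lost on leaving out 2, 4 and 5 cultures in turn. For P1 against E16 donors 6.08% of all probe sets passed.

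In the list of 25 measured interferon response genes, 1 fell and 24 did not pass after a first transplantation of TEC cultures, and 4 fell and 21 did not pass after a second. Over all probe sets 0.516% and 3.86% passed in these comparisons. Isg15, a ubiquitin-like protein, fell by 1.09 on the log2 scale after a first (limma adjusted p = 0.0353, lost on leaving out any of 9 cultures) and by 1.14 after a second transplantation (adjusted p = 0.0143, kept in every such fit). Psmb9, an immunoproteasome subunit encoded in the class II region, fell by 1.16 (adjusted p = 0.0346), Psmb10 by 0.74 (adjusted p = 0.0485) and Ifi44 by 0.67 (adjusted p = 0.0323) after a second. The calls of Psmb9, Psmb10 and Ifi44 were lost on leaving out 5, 12 and 5 of the cultures in turn. The list's median difference was -0.12 for the first graft and -0.18 for the second.

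Isg15 also set TEC apart from HF cultures before grafting (1.39 ± 0.25, limma SE, adjusted p = 0.0184), with 24 of 25 not past. This call was lost without YR219P5_Bulk_V, which leaves 1 ungrafted HF culture. All probe sets past the threshold made up 1.55% there. Averaged over both states, Isg15 (0.95 ± 0.18, adjusted p = 0.0152) and Ifit2 (2.21 ± 0.56, adjusted p = 0.0419) were higher, calls lost on leaving out any of 3 cultures for Isg15 (adjusted p up to 0.0696) and any of 10 for Ifit2 (up to 0.133). In P1 against E16 TEC cultures Mx2 and Gbp2 were higher and Ifih1 lower (0.83, 0.84 and -0.9997, adjusted p = 0.0337, 0.0233 and 0.0142). These calls were lost on leaving out any of 7, 3 and 2 cultures in turn, Clone_57 and Clone_194 among them each time, with adjusted p up to 0.181, 0.167 and 0.148.

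Of the 3 measured genes of class II turnover, Marchf8, a ubiquitin ligase that removes class II from the surface, was higher in TEC than in HF cultures averaged over both states (0.53 ± 0.10, limma SE, adjusted p = 0.0174). This call was lost without YR219P5cl7 or Clone_54, either of which leaves 1 culture in its HF group. All probe sets past the threshold made up 4.17% there. The 6 measured costimulatory and inhibitory ligands gave 0 in every comparison, with 7 of 54 unadjusted p under 0.05.

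Markers of other cells were read beside these results. Of 24 haematopoietic and antigen-presenting cell genes, 20 were measured and 0 passed in any comparison (limma, with 10 of 180 unadjusted p under 0.05), and the others were not analysed here. The mean log2 level of the 20 lay between 4.54 and 4.62 in ungrafted TEC cultures, 4.48 and 4.64 after the first graft and 4.46 and 4.75 after the second, against 4.54 to 4.79 in grafted and 4.46 to 4.70 in ungrafted HF cultures. A total of 16 of 20 ranged over at most 1 on the log2 scale, and the exceptions were Cd68, Cd48, Coro1a and Cd14. YR219P5_RC held the highest value for 13 of the 20, and its array 1 is the one with the raised median. Cd48 reached 7.15 in YR219P5_Bulk_V and 6.91 in PRP4mo_bulk. The mean of 13 fibroblast and feeder genes lay between 6.29 and 6.70 in ungrafted TEC cultures, 5.93 and 6.10 after the first graft and 5.76 and 6.03 after the second, against 6.08 to 6.28 in grafted and 6.12 to 6.57 in ungrafted HF cultures. Of the feeder list, S100a4 fell by 1.70 and Twist1 by 1.21 on the log2 scale after a second transplantation of TEC cultures (limma adjusted p = 0.0134 and 0.0177), and 0 of 13 passed after a first. Over all probe sets 3.86% passed after a second and 0.516% after a first. The call of Twist1 was lost without Clone_347 (adjusted p = 0.0514). Fn1, the gene of fibronectin, was lower in P1 than in E16 TEC cultures (-0.63 ± 0.15, adjusted p = 0.0355, lost on leaving out any of 7 cultures) and higher in TEC than in HF cultures averaged over both states (0.76 ± 0.20, adjusted p = 0.0483, lost on leaving out any of 13). In the averaged comparison 4 of the 13 feeder genes were higher in TEC cultures and 9 lower, with a median log2 difference of -0.10. The mean of the feeder list was lower in grafted than in ungrafted TEC cultures, where Ctsh was higher and Isg15 lower. Fn1 was lower in P1 cultures, as were Irf8, Ctsl, Lgmn and Lamp2. Of the 13 genes of the feeder list, 7 were higher and 6 lower in P1 than in E16 TEC cultures, with a median log2 difference of 0.04. The feeders are mouse cells and the arrays are of rat genes, so how far these levels follow feeder content is not known. The part of these markers in those results was not tested.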

How the data were processed

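The deposited table gives a log2 signal for each probe set, for which the submitters' processing notes name RMA and Affymetrix Expression Console; versions and the annotation release are not given in the sources used here. The table held 29215 probe sets, of which 15316 named 1 gene, 317 several and 13582 none; only the first kind was used, with no filter on level and with probe sets of a gene kept apart. Both arrays of a culture were averaged, so the culture is the unit. The test was limma's (version 3.58.1 under R 4.3.3; lmFit and eBayes, 1 coefficient for each of 5 groups; for donor stage, the 12 TEC cultures with transplantation state as a term), with Benjamini-Hochberg adjustment over all 15316 probe sets and a threshold of 0.05. The labels do not say that cultures are separate animals, so p-values measure the spread between cultures, whose number limits the precision. The fit was tested on simulated data.

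The members and gene lists were chosen with earlier results of these data known. Named were all members, list genes past the threshold, defining markers, and the 10 probe sets most and 10 least correlated with Cd74. Ctss, Cd68, Cd48, Coro1a, Cd14, Cdh1, Tp63, Vim, Thy1 and the single cultures pointed out were chosen after their values were seen. Alternatives were arrays with culture as a random block, arrays centred on their medians, a mean log2 level of at least 5, trend and robust eBayes, only the cultures compared, clonal cultures alone, donor stage as a term and each culture left out in turn. Array 2 alone for YR219P5_RC, and the spread of RT1-DMa and RT1-Bb without 1 culture, were added after seeing the data. The letters of both promoter patterns were chosen after the RefSeq windows were read. Chromosome positions are RefSeq's for GRCr8; the array's own build is not given in the sources used here. Gene symbols came from the platform annotation, and 15279 of 15316 were found by Entrez gene in the RefSeq table.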

Additional observations from a re-analysis of the deposited data

Results flagged for a closer look

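A culture far from the other 3 of its group, by Dixon's ratio above 0.829, was found in 11 of 72 groups of 4 cultures tested, and chance gives such a ratio in about 5% of groups. Among the class II genes, RT1-Bb was 7.07 in Clone_347, with the other TEC cultures after a second transplantation at 4.95 to 5.03. RT1-DMa was 10.48 in Clone_287 of that group, with the others at 9.58 to 9.73, and RT1-Da was 4.04 there, with the others at 4.45 to 4.52. Among ungrafted TEC cultures, RT1-Db1 was 3.59 in PRP1cl11_VII against 3.81 to 3.84, and RT1-DMb was 6.75 in PRP4mo_Cl09 against 6.49 to 6.51. The RT1-DMb arrays of PRP4mo_Cl09 read 6.72 and 6.78 and those of PRP4mo_bulk 6.30 and 6.73, so single arrays of these cultures overlapped.

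Around the pathway, genes entered this search because they passed a comparison, and Ctsl, Lamp2 and Gbp2 did so for P1 against E16 donors, with a single P1 culture in each group of 4. Ctsl was 10.40 in Clone_194 with the others at 11.22 to 11.34, Lamp2 was 10.19 in Clone_57 with the others at 10.72 to 10.80, and Gbp2 was 5.42 in Clone_57 and 5.84 in Clone_194 with the others at 4.66 to 4.76 and 4.56 to 4.73. Isg15 was 6.49 in Clone_218, with the other TEC cultures after a first transplantation at 5.62 to 5.71. Ifit2 was 7.94 in PRE16cl11_VII, with the other ungrafted TEC cultures at 5.67 to 6.02.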

How the results depend on the processing

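The count of class II genes past the threshold was 0 of 8 in each of the 9 comparisons. It became 1, RT1-DMb, with culture as a random block for TEC against HF before grafting (6.38% of all probe sets past in that fit, against 1.55%) and for HF after against before (0.32% against 0%), and for TEC against HF also with only the compared cultures (adjusted p = 0.0234). With each culture left out in turn the count ran from 0 to 1 in those 2 comparisons, the 1 being RT1-DMa without YR219P5cl7, and stayed 0 in the others. Among the class II values given, those that reversed were Cd74 at -0.53 (clonal cultures alone) and -0.41 (without YR219P5_Bulk_V) and RT1-DMa at -0.17 and -0.23 under the same settings, all for TEC minus HF before grafting, and RT1-Bb at -0.21 without Clone_347 for the second transplantation; Cd74 for the second minus the first transplantation ran to -0.22 with clonal cultures alone and between -0.24 and 0.54 with each culture left out in turn. The cause was not tested. Leaving out single cultures took the first 3 of these up to 1.22 for Cd74, 1.63 for RT1-DMa and 0.50 for RT1-Bb. Of the 72 pairs of gene and comparison, 38 kept their sign in every alternative and 34 did not, and 5 of 1669 fits passed. The number of all probe sets past the threshold ran from 4 to 977 for TEC against HF before grafting, 0 to 1183 and 35 to 2070 for TEC cultures after a first and a second transplantation, 0 to 136 between those, 0 to 260 for HF, 0 to 75 for the interaction, 15 to 1553 averaged over states, 1 to 401 for 4-month and 4 to 2268 for P1 against E16 donors. No paired analysis was possible because the labels number the 2 arrays of each culture and pair no cultures. With 2 HF cultures in each state and no detection calls, small differences and low signals could not be resolved. Leaving out an HF culture, as in the RT1-DMa fits without YR219P5cl7, leaves 1 culture in its group, with no spread of its own.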
